A study of Mus musculus with 7 samples.

Results

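The 10 genes described here encode the hepatic insulin signalling route from the insulin receptor to the FOXO factors, namely *Insr*, *Irs1*, *Irs2*, *Pik3r1*, *Pik3ca*, *Akt1*, *Akt2*, *Foxo1* and *Foxo3*, together with the pseudokinase gene *Trib1*. They were taken by gene symbol from the liver RNA-seq table, where they are 10 of 23347 genes, and all 10 were among the 15179 genes with enough counts to be tested. Liver RNA came from 4 *B4galt1* flox/flox mice, which the sample labels call WT, and from 3 mice labelled B4galt1-HKO, written here as labelled *B4galt1* hep-/-, with 1 library per mouse. Both groups carried the floxed *B4galt1* allele on a C57BL/6 background, and in the knockout an *Alb-Cre* transgene, driven by the albumin promoter and so directed to hepatocytes, removes this galactosyltransferase gene. All were males that started on the CDAHFD, a high-fat diet that lacks choline, which brings on steatohepatitis, at 6 to 8 weeks of age and stayed on it for 15 weeks, and the controls were littermates. Other liver cells keep the gene in this model.

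Insulin binds its receptor on the hepatocyte, which phosphorylates the insulin receptor substrates IRS1 and IRS2. These recruit phosphoinositide 3-kinase, a dimer of a regulatory and a catalytic subunit, whose lipid product brings AKT kinases to the membrane to be activated. Active AKT phosphorylates FOXO transcription factors, which then leave the nucleus, so that genes of glucose output fall, while lipogenic genes are turned on through other branches. Much of this control acts on protein phosphorylation and is not seen in transcript levels, but *Irs2* and *Igfbp1* are known as genes that FOXO1 turns on in the fasted liver.

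Total counts were 30608271 to 39668509 per library, and every library labelled hep-/- was smaller than every flox/flox library. Mitochondrially encoded transcripts took 3.88% to 8.0% of counts in the flox/flox livers and 14.4% to 22.6% in the livers labelled hep-/-. *B4galt1* itself was at 48.7, 53.0, 49.2 and 51.6 CPM (counts scaled to a library of fixed size, scaled by the TMM method of edgeR) in flox/flox replicates 1 to 4. It was at 28.4, 23.9 and 53.7 CPM in replicates 1 to 3 labelled hep-/-, so that replicate 3 did not show the loss that its label implies, and values without it are given below for several members and named list genes. A gene was called changed at an adjusted p under 0.05 (edgeR quasi-likelihood test, Benjamini-Hochberg adjustment over all tested genes) with an absolute log2 fold change over 0.58. By this rule 15.8% of tested genes were called, 8.0% higher and 7.83% lower in the livers labelled hep-/-. On the FPKM scale (counts per unit of transcript length and library total), tested with limma at a pseudocount of 1, 24.5% of calls were higher, against 50.5% in the count test, and the median gene moved by -0.12 on the log2 scale between the scales.

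The stretches before the transcription start sites of the receptor substrates are shown because they carry short motifs through which FOXO and E-box factors are known to act. They are RefSeq sequences of the GRCm38.p6 build, a different build from the GRCm39 that the submitters' processing notes name for the counts, and serve only as sequence. Windows of 250 bases before the start were given for 8 of the 10 genes, in 13 windows. *Insr* and *Trib1* had none. Both strands were searched for 3 motifs, and matches are in capitals. The insulin response element has the letters TGTTTTG, which read CAAAACA on the opposite strand. The FOXO motif has the letters GTAAACA, which read TGTTTAC on the opposite strand. The E-box, which reads alike on both strands, is CACGTG. The *Irs1* window is chr1:82291440-82291689 and the *Irs2* window chr8:11008930-11009179, both upstream of their genes on the minus strand and ending at the base before the start.
Irs1: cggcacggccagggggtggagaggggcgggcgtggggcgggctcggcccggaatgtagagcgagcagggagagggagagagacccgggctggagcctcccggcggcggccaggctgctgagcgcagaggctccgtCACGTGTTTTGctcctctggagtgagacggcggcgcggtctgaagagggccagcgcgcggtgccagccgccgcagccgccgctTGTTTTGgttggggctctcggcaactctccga
Irs2: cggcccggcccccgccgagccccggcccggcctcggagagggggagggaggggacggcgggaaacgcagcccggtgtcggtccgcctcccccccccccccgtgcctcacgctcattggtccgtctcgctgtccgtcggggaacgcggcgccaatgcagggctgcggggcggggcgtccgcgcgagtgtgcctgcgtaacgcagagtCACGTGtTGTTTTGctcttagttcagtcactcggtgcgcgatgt
In *Irs1* the E-box began 115 bases and the insulin response element 111 bases before the start, so that the motifs share letters, and another TGTTTTG began 32 bases before it. In *Irs2* the E-box began 44 bases and the insulin response element 37 bases before the start. The insulin response element was in 5.56% and the E-box in 6.02% of the 32851 windows of all genes, and starts of both within 10 bases of each other, a distance set after the sequences were seen, occurred in 7 windows (0.0213%), which were those of *Irs1*, *Irs2*, *Irs4*, *Klf11*, *Pcbp1*, *Pyroxd1* and 1700019P21Rik. A match is only a match of letters.

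The FOXO motif was in 3.17% of the windows of all genes and in 1 of the 13 windows of the 8 genes. That window is of *Akt1*, where TGTTTAC began 161 bases before the more upstream of the *Akt1* starts (chr12:112675013-112675072, minus strand). The stretch of *Igfbp1*, a textbook FOXO1 target in liver, is given beside it for comparison (chr11:7197652-7197711, plus strand), and its CAAAACA began 108 bases before the start.
Akt1: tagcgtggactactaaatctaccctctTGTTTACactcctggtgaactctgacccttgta
Igfbp1: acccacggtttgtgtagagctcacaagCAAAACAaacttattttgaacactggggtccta
None of the 3 motifs was found in the windows of *Pik3r1*, *Pik3ca*, *Akt2*, *Foxo1* and *Foxo3*.

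Per unit of length, these transcripts spanned about an order of magnitude in flox/flox livers. *Akt1* was the most abundant at 24.0 ± 3.77 FPKM (SD, n = 4), followed by *Trib1* at 17.5 ± 2.37, *Insr* at 12.7 ± 0.535 and *Akt2* at 10.2 ± 1.22. *Foxo3* (8.21 ± 1.30), *Irs2* (6.92 ± 1.98), *Pik3r1* (5.64 ± 0.395), *Pik3ca* (5.51 ± 1.46) and *Foxo1* (5.43 ± 1.40) formed a run in which each overlapped the next, and *Irs1* was lowest at 2.27 ± 0.379 FPKM. In that order neighbours did not overlap between *Trib1* and *Insr*, between *Insr* and *Akt2*, and between *Foxo1* and *Irs1*. In livers labelled hep-/- *Trib1* came first at 19.3 ± 4.52 FPKM (SD, n = 3) and *Akt1* next at 15.4 ± 1.05, with overlapping ranges. *Akt1* was above *Trib1* in 3 of the 4 flox/flox livers and in 0 of the 3 livers labelled hep-/-, a comparison added after the values were seen.

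None of the 10 genes passed the test between the groups, where 15.8% of all tested genes did. At an unadjusted p under 0.05 there were 2 of 10 (*Akt1* and *Akt2*), beside 32.9% of all genes, and the groups did not overlap in CPM for the same 2 genes, beside 28.6%. DESeq2 and voom also called 0 members at both thresholds, and limma on FPKM called *Akt1* at a pseudocount of 1 and *Akt1* and *Akt2* at 0.1. In mean level 6 members were higher and 4 lower in livers labelled hep-/-, with a median log2 fold change of 0.06 against 0.02 over all tested genes. The 95% intervals of 8 members held 0, and those of 8 reached past 0.58 in at least 1 direction, so that for these a change of the size used for calling was not excluded with 4 and 3 mice. In whole liver, fewer cells of a type and less RNA per cell cannot be told apart. The p-values measure the spread between these mice.

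**Figure D1:**
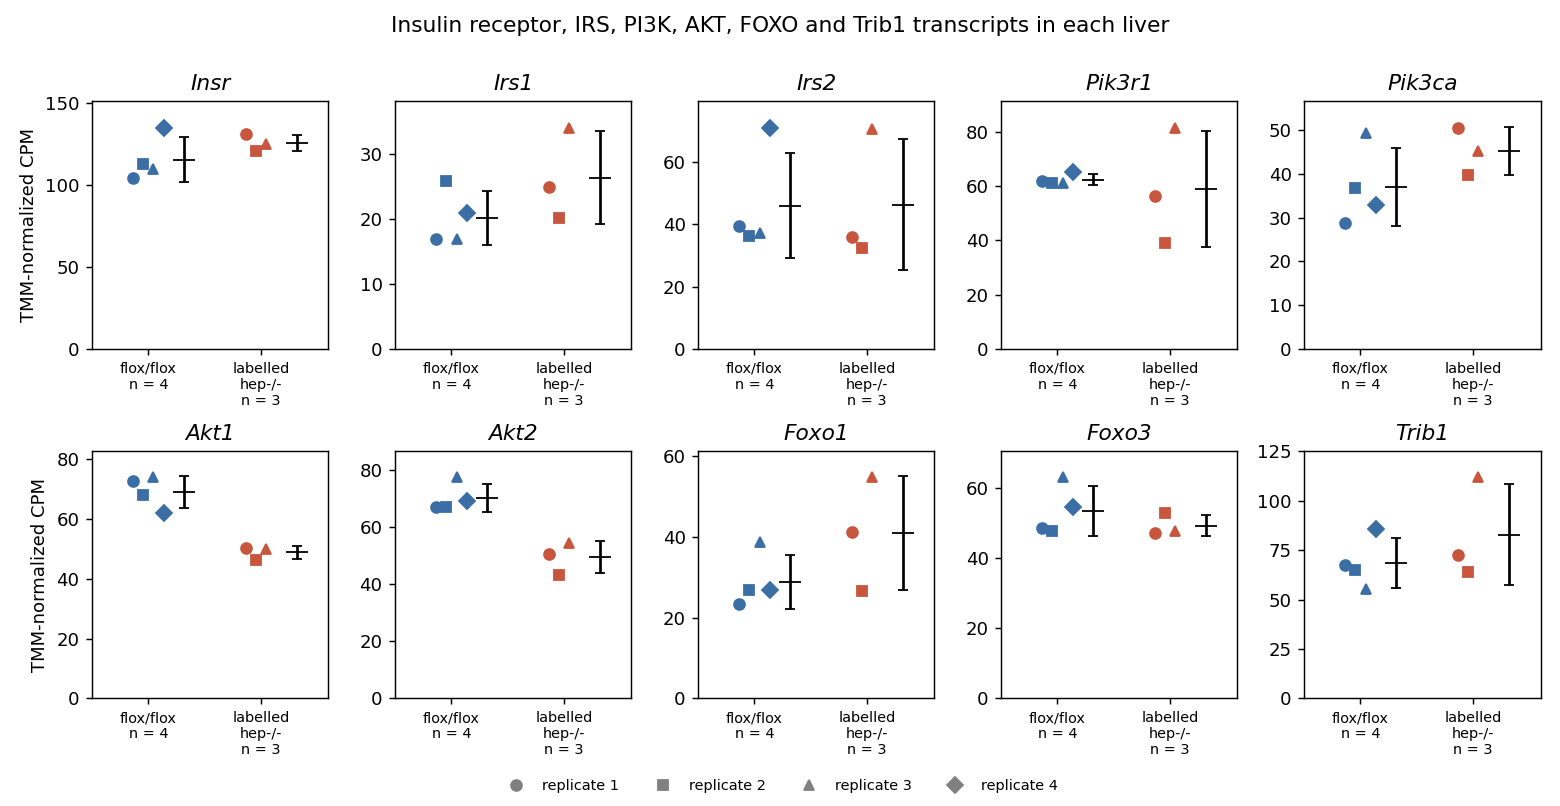
TMM-normalized CPM (vertical axes, from 0) of the 10 genes in each of the 4 flox/flox livers (blue) and the 3 livers labelled hep-/- (red); symbols give the replicate number, and the bar beside them the mean and SD. *Akt1* and *Akt2* are the only panels in which the groups do not overlap.

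*Insr*, the insulin receptor (gene identifier 16337), had 104, 113, 109.7 and 135 CPM in flox/flox replicates 1 to 4 and 131, 121 and 125 CPM in replicates 1 to 3 labelled hep-/-. All 3 of the latter lay inside the flox/flox range. The log2 fold change was 0.12 (SE 0.18, 95% interval -0.27 to 0.51, edgeR adjusted p = 0.668), and on the FPKM scale it was 0.00. In CPM, though not in FPKM, *Insr* varied least of all members in livers labelled hep-/-, with a coefficient of variation of 4.11%.

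*Irs1* (16367) and *Irs2* (384783), the docking proteins that the receptor phosphorylates, overlapped between the groups. *Irs1* was at 17.0, 25.8, 16.9 and 20.9 CPM in flox/flox livers and at 25, 20.1 and 34.1 CPM in livers labelled hep-/-. The highest value was in replicate 3 labelled hep-/-, and the log2 fold change of 0.39 (SE 0.23, adjusted p = 0.257) dropped to 0.16 without that liver. *Irs2* was at 39.5, 36.2, 37.2 and 71.0 CPM in flox/flox livers and at 35.8, 32.4 and 70.4 CPM in livers labelled hep-/-. Thus 1 liver of each group stood near 70 CPM and the other 5 lay between 32.4 and 39.5, so that the groups had almost the same mean, 46.0 ± 16.7 (SD, n = 4) and 46.2 ± 21.0 CPM (SD, n = 3). Its log2 fold change was 0.01 (SE 0.31, 95% interval -0.68 to 0.69, adjusted p = 0.989), and -0.44 without replicate 3 labelled hep-/- and 0.30 without flox/flox replicate 4. In CPM *Irs2* was the most variable member in both groups. Its coefficients of variation, 36.4% and 45.5%, include the 1 liver of each group near 70 CPM.

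For the PI3K subunits, *Pik3r1* (18708), which encodes the p85α regulatory subunit, was at 61.9, 61.1, 61.0 and 65.3 CPM in flox/flox livers and at 56.2, 39.1 and 81.6 CPM in livers labelled hep-/-. In CPM, though not in FPKM, the flox/flox values were the tightest of all members. Their coefficient of variation was 3.23% against 36.2% in the other group, whose values lay on both sides of them. The log2 fold change was -0.08 (SE 0.23, adjusted p = 0.838), and it was -0.39 without replicate 3 labelled hep-/- and 0.14 without replicate 2. *Pik3ca* (18706), which encodes the p110α catalytic subunit, was at 28.9, 36.7, 49.4 and 33.0 CPM in flox/flox livers and at 50.6, 39.8 and 45.3 CPM in livers labelled hep-/-. Flox/flox replicate 3 lay among the latter, and the log2 fold change was 0.29 (SE 0.21, adjusted p = 0.356).

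The AKT kinase genes were the members with the lowest p. *Akt1* (11651) was at 72.5, 67.9, 73.9 and 62.0 CPM in flox/flox livers and at 50.2, 46.1 and 50 CPM in livers labelled hep-/-, 0.706 times the flox/flox level. *Akt2* (11652), the isoform known for insulin action in liver, was at 67.1, 66.8, 77.4 and 69.1 CPM in flox/flox livers and at 50.7, 43.3 and 54.5 CPM in livers labelled hep-/-, also 0.706 times. All 3 livers labelled hep-/- lay below all 4 flox/flox livers for both genes, including replicate 3, in which *B4galt1* was not reduced. The log2 fold change was -0.50 for *Akt1* (SE 0.17, 95% interval -0.87 to -0.14) and -0.50 for *Akt2* (SE 0.17, 95% interval -0.88 to -0.12). Both missed the threshold, with edgeR adjusted p-values of 0.0609 and 0.0686, and the exact two-sided permutation test gave 0.0286 for each, the smallest p that 35 splits allow. Over the alternatives the adjusted p ran from 0.0240 to 0.210 for *Akt1* and from 0.0217 to 0.248 for *Akt2*, and DESeq2 gave 0.0389 and 0.0505. Leaving out any single liver kept the log2 fold change between -0.55 and -0.46 for *Akt1* and between -0.59 and -0.41 for *Akt2*.

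*Foxo1* (56458), the FOXO factor best known in the fasted liver, was at 23.5, 26.8, 38.7 and 26.8 CPM in flox/flox livers and at 41.2, 26.6 and 54.8 CPM in livers labelled hep-/-. Replicates 1 and 3 labelled hep-/- were above every flox/flox liver, and replicate 2 was among the lower ones. The log2 fold change was 0.50 (SE 0.25, 95% interval -0.06 to 1.05, adjusted p = 0.197), as large as that of the AKT genes in the other direction but with more spread, and 0.22 without replicate 3. *Foxo3* (56484) was at 48.6, 47.8, 63.1 and 54.6 CPM in flox/flox livers and at 47.2, 52.8 and 47.8 CPM in livers labelled hep-/-, with a log2 fold change of -0.12 (SE 0.18, adjusted p = 0.664). These values overlapped widely.

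*Trib1* (211770) encodes a pseudokinase that brings C/EBPα to the ubiquitin ligase COP1 and whose locus is linked to plasma lipids. It was at 67.4, 65.1, 55.5 and 85.7 CPM in flox/flox livers and at 72.7, 63.8 and 112 CPM in livers labelled hep-/-. The groups overlapped, and the log2 fold change of 0.28 (SE 0.23, adjusted p = 0.435) became -0.01 without replicate 3 labelled hep-/-. Replicate 3 held the highest value of all 7 livers for 4 of the 10 members, *Irs1*, *Pik3r1*, *Foxo1* and *Trib1*, and the lowest for 0. Replicate 2 of the same group held the lowest for 4, *Irs2*, *Pik3r1*, *Akt1* and *Akt2*.

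**Figure D2:**
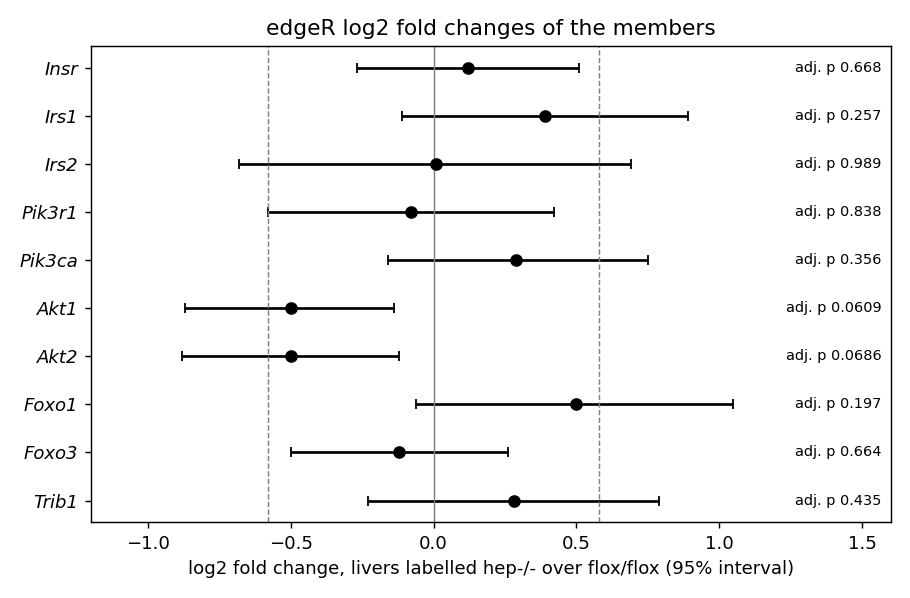
edgeR log2 fold change of each member (horizontal axis; points, livers labelled hep-/- over flox/flox) with its 95% interval and adjusted p; the dashed lines mark the threshold of 0.58. Only the intervals of *Akt1* and *Akt2* lie wholly on one side of 0.

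Ratios between members within a liver do not depend on how libraries are scaled, and 5 pairs were tested. The *Akt2*/*Akt1* ratio of FPKM was 0.389 to 0.469 in flox/flox livers and 0.395 to 0.459 in livers labelled hep-/-, a log2 difference of -0.01 (two-sided exact permutation p = 0.943, also after Benjamini-Hochberg adjustment over the 5 pairs). The *Foxo1*/*Foxo3* ratio was 0.592, 0.686, 0.749 and 0.600 in flox/flox livers and 1.07, 0.616 and 1.40 in livers labelled hep-/-. *Foxo3* was thus the more abundant transcript in all flox/flox livers but in only 1 of 3 livers labelled hep-/-, and the log2 difference of 0.57 did not pass the test (exact permutation p = 0.114, adjusted 0.476). The *Pik3r1*/*Pik3ca* ratio was 1.30, 1.01, 0.752 and 1.20 against 0.676, 0.599 and 1.10, a log2 difference of -0.46 (exact permutation p = 0.200, adjusted 0.476). *Irs2* exceeded *Irs1* in every liver, by 1.89 to 4.58 times in flox/flox livers and by 1.93 to 2.78 times in livers labelled hep-/- (log2 difference -0.40, exact permutation p = 0.286, adjusted 0.476). For *Irs2*/*Insr* the log2 difference was -0.15 (exact permutation p = 0.629, adjusted 0.786). The groups overlapped in all 5 ratios.

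**Figure D3:**
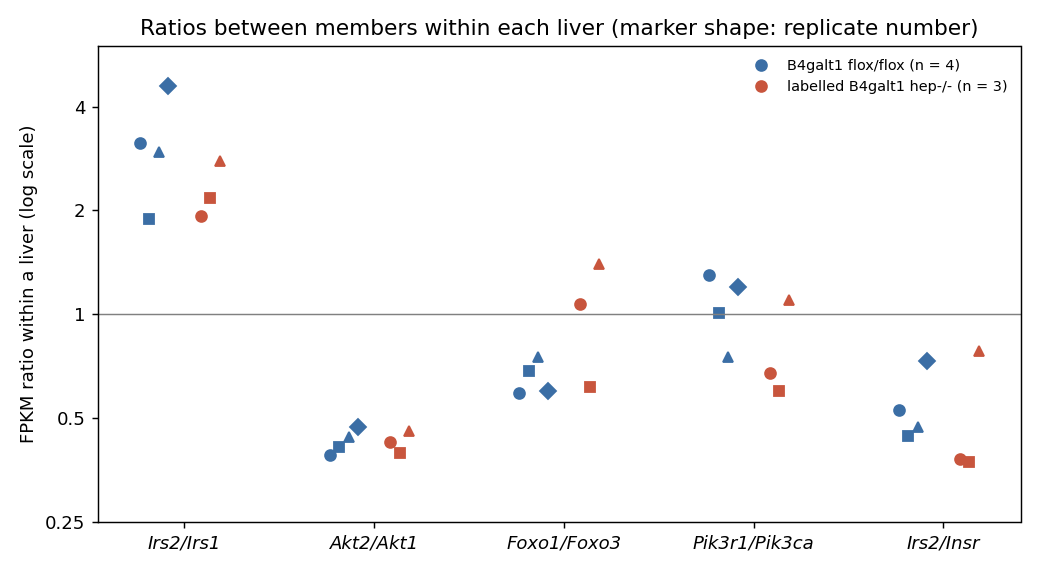
FPKM ratio of 5 pairs of members within each liver (log axis; blue, 4 flox/flox livers; red, 3 livers labelled hep-/-; symbols, replicate numbers). *Akt2*/*Akt1* has the narrowest spread, and *Foxo1*/*Foxo3* lies above 1 in 2 livers labelled hep-/-.

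Shares within gene families were compared as a description, chosen after the values were seen. Among class IA catalytic subunits *Pik3cb*, which encodes p110β, took 24.6% to 31.7% of summed FPKM in flox/flox livers and 17.5% to 20.3% in livers labelled hep-/-, without overlap, while *Pik3ca* took 37.6% to 50.8% and 48.1% to 55.2%. In CPM *Pik3cb* did not pass the test (log2 fold change -0.55, adjusted p = 0.0954). Among Tribbles genes *Trib1* took 63.1% to 68.6% in flox/flox livers and 74.5% to 86.3% in livers labelled hep-/-, and *Trib3* 25.5% to 32.8% and 10.1% to 19.2%. Both shares were without overlap, but shares of 1 sum depend on each other and are not separate results. In CPM *Trib1* overlapped between the groups (log2 fold change 0.28, edgeR adjusted p = 0.435). *Foxo1* took 27.7% to 33.2% and 28.0% to 47.3% of the FOXO sum, and *Irs2* 65.4% to 82.1% and 65.9% to 73.6% of the *Irs1* and *Irs2* sum, with overlap in both.

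The other genes of the pathway were taken from a list of 88 genes grouped by role, of which 85 were tested. Of these, 6 were called higher and 7 lower in livers labelled hep-/-, 15.3% in all beside 15.8% of all tested genes, and the median log2 fold change was 0.01. The list as a whole was thus at the background. The 13 calls fell to 1 without flox/flox replicate 2, 8 without replicate 3 and 7 without replicate 4, and to 7, 5 and 8 without replicates 1, 2 and 3 labelled hep-/-. With the replicate number as a block 5 were called. Without replicate 3 labelled hep-/-, the liver with *B4galt1* at the flox/flox level, 6 of the 13 calls were lost and 1 other gene was called, and *Ide* (adjusted p = 0.0547), *Ptpn2* (0.0868), *Inpp4a* (0.0914), *Phlpp1* (0.105), *Trib3* (0.0519) and *Mlxipl* (0.0660) missed the threshold. Their log2 fold changes were then -0.70, 0.57, 0.79, -0.56, -1.0 and 1.31, in the same directions as with it.

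Among the 6 tested genes of other receptors and insulin handling, 3 were called, all lower, where 7.83% of all tested genes were called lower, and all 3 calls were lost without flox/flox replicate 2. *Igf2r*, the receptor that takes up IGF2 and sorts lysosomal enzymes, fell from 59.3 ± 4.37 to 35.7 ± 2.38 CPM (SD, n = 4 and 3, log2 fold change -0.73, edgeR adjusted p = 0.0164). *Ceacam1*, a membrane protein that promotes insulin clearance by hepatocytes, fell from 85.0 ± 15.8 to 42.5 ± 17.8 CPM (log2 fold change -1.0, adjusted p = 0.0328). The insulin-degrading enzyme gene *Ide* fell from 62.5 ± 8.06 to 40.2 ± 5.19 CPM (log2 fold change -0.64, adjusted p = 0.0395). Without replicate 3 labelled hep-/-, at 61.4 CPM the highest of its group, *Ceacam1* was at -1.37. The calls of *Ceacam1* and *Ide* held in 3 and 1 of the 7 leave-one-out fits, and that of *Igf2r* in 6. Of 7 receptor brakes, *Ptprf*, a receptor tyrosine phosphatase, fell from 61.2 to 30.5 CPM (log2 fold change -1.0, adjusted p = 0.0236) and *Ptpn2*, a phosphatase of the insulin and cytokine pathways, rose from 15.4 to 24.9 CPM (log2 fold change 0.69, adjusted p = 0.0284).

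None of 9 adaptors and none of 9 other PI3K subunits passed. Their most abundant genes by CPM were *Crk* (log2 fold change -0.31, adjusted p = 0.422) and *Pik3c2a* (-0.38, adjusted p = 0.279). Of 9 genes of lipid phosphatases and related enzymes, *Inpp4a*, which removes a phosphate from a PI3K lipid product, was called higher (17.8 to 37.5 CPM, log2 fold change 1.08, adjusted p = 0.0259) although replicate 1 labelled hep-/-, at 19.8 CPM, lay within the flox/flox range. *Phlpp1*, a phosphatase of AKT, was called lower (17.9 to 11.6 CPM, log2 fold change -0.63, adjusted p = 0.0441), and that call was lost whichever liver was left out. In the list of PDK1 and mTORC2, the kinases that phosphorylate AKT, *Mapkap1*, which encodes the mTORC2 subunit SIN1, fell from 34.0 to 21.5 CPM (log2 fold change -0.66, adjusted p = 0.0365), the only call of 6.

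Nearest to AKT itself, 2 of 8 genes of the AKT family and AKT binders were called, beside 15.8% of all tested genes. *Trib3*, a pseudokinase that binds AKT and is a relative of *Trib1*, was at 16.1, 17.3, 10.6 and 17.9 CPM in flox/flox livers and at 9.51, 6.03 and 6.71 CPM in livers labelled hep-/-. All values of the latter were lower (log2 fold change -1.06, SE 0.25, adjusted p = 0.0196). *Ppp2r5b*, a regulatory subunit of the PP2A phosphatase that acts on AKT, was at 8.71, 8.91, 9.23 and 8.56 CPM in flox/flox livers and at 14.2, 15.5 and 22.4 CPM in livers labelled hep-/- (log2 fold change 0.97, SE 0.21, adjusted p = 0.0128). It was the pathway gene whose call held in all 7 fits that left out a liver. *Rps6kb2*, an S6 kinase of the mTORC1 branch, was the only call among 15 AKT substrates and mTORC1 genes (15.4 to 33.3 CPM, log2 fold change 1.11, adjusted p = 0.0169).

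None of the 10 tested genes of the FOXO family and FOXO regulators was called. *Ywhaz*, which encodes a 14-3-3 protein of the kind that holds phosphorylated FOXO in the cytoplasm, was the most abundant (173 to 207 CPM, log2 fold change 0.26, adjusted p = 0.406). Of 6 genes listed as partners of *Trib1*, 2 were called higher, beside 8.0% of all tested genes. *Cebpb*, a C/EBP transcription factor, was at 136, 136, 178 and 198 CPM in flox/flox livers and at 375, 246 and 309 CPM in livers labelled hep-/- (log2 fold change 0.94, SE 0.22, adjusted p = 0.0184). *Mlxipl*, which encodes the glucose-responsive factor ChREBP, was at 109, 48.5, 26.6 and 74.1 CPM in flox/flox livers and at 134, 189 and 187 CPM in livers labelled hep-/- (log2 fold change 1.40, SE 0.37, adjusted p = 0.0287). The groups did not overlap for either gene, and both calls were lost without flox/flox replicate 2. *Cebpa*, which encodes C/EBPα and was added beyond the naming rule after its values were seen, was at 395, 317, 244 and 407 CPM in flox/flox livers and at 238, 164 and 241 CPM in livers labelled hep-/-. It was lower without overlap but missed the threshold in edgeR (log2 fold change -0.67, SE 0.24, adjusted p = 0.0785), while the DESeq2 adjusted p was 0.0388, and over all alternatives it ran from 0.0158 to 0.273.

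**Figure D4:**
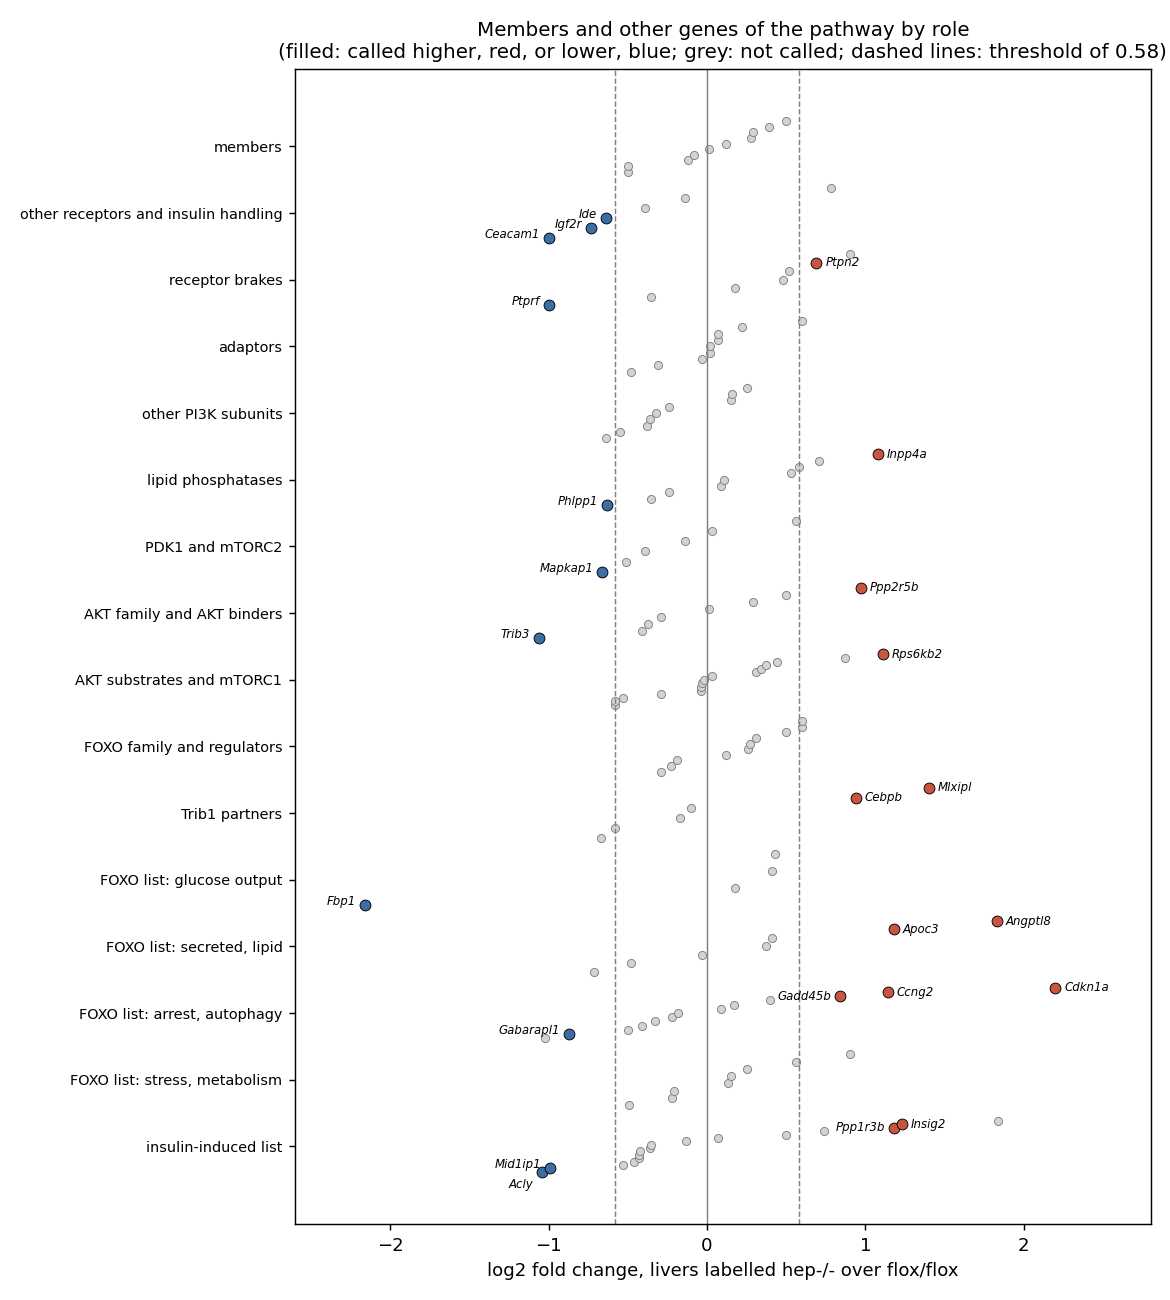
edgeR log2 fold changes (horizontal axis, livers labelled hep-/- over flox/flox) of the members and of the tested genes of 3 lists by role (vertical axis); called genes are in red (higher) or blue (lower) with their symbols, others grey, and dashed lines mark 0.58. The members lie inside the dashed lines, and adaptors, other PI3K subunits, the FOXO family and regulators, and the stress and metabolism genes show no call.

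Genes known to respond to FOXO factors were read as a list of 33, of which 32 were tested. There were 5 calls higher and 2 lower, 21.9% beside 15.8% of all tested genes, with a median log2 fold change of 0.14. Genes of glucose output did not move together. *Fbp1*, a gluconeogenic phosphatase gene, was at 748, 857, 756 and 1007 CPM in flox/flox livers and at 126, 97.2 and 342 CPM in livers labelled hep-/- (log2 fold change -2.16, SE 0.40, adjusted p = 0.00752). Replicate 3 labelled hep-/- was the highest of its group, and without it the log2 fold change was -2.93. The textbook targets of this role, added beyond the naming rule, did not pass, namely *G6pc* (log2 fold change 0.43, adjusted p = 0.403), *Pck1* (0.18, adjusted p = 0.649) and *Ppargc1a* (0.41, adjusted p = 0.301). *Igfbp1*, whose upstream stretch is shown above, was at 124, 217, 456 and 200 CPM in flox/flox livers and at 220.1, 186 and 591 CPM in livers labelled hep-/-, with overlap (log2 fold change 0.41, adjusted p = 0.559, and -0.31 without replicate 3 labelled hep-/-).

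Of the secreted and lipid genes on that list, *Angptl8*, which encodes a secreted inhibitor of lipoprotein lipase, rose from 7.99 ± 2.60 to 28.4 ± 9.86 CPM (SD, n = 4 and 3, log2 fold change 1.83, adjusted p = 0.00540), and *Apoc3*, an apolipoprotein gene that FOXO1 is known to raise, from 1148 to 2595 CPM (log2 fold change 1.18, adjusted p = 0.0183). *Angptl8* is also known to be raised by insulin. Of 13 genes of growth arrest and autophagy, 3 were called higher and 1 lower, beside 8.0% and 7.83% of all tested genes. *Cdkn1a*, the cell cycle inhibitor p21, was at 15.4, 23.8, 32.8 and 21.2 CPM in flox/flox livers and at 77.4, 78.7 and 164 CPM in livers labelled hep-/- (log2 fold change 2.20, SE 0.31, adjusted p = 0.00313, and 1.74 without replicate 3 labelled hep-/-), and p53 also drives this gene. *Ccng2* rose from 17.3 to 38.1 CPM (log2 fold change 1.14, adjusted p = 0.0346) and *Gadd45b* from 16.2 to 28.9 CPM (log2 fold change 0.84, adjusted p = 0.0386, with overlap). The autophagy gene *Gabarapl1* fell from 297 to 163 CPM (log2 fold change -0.87, adjusted p = 0.0302). None of 8 genes of stress and metabolism passed, and *Tat*, which had the highest mean CPM over all 7 livers, was among those that did not (log2 fold change 0.25, adjusted p = 0.642, and -0.11 without replicate 3 labelled hep-/-). The calls of *Fbp1*, *Angptl8* and *Cdkn1a* held in all 7 fits that left out a liver, while 4 of the 7 calls on this list were lost without flox/flox replicate 2 or without replicate 1 labelled hep-/-, and 3 without flox/flox replicate 3 or 4.

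Of 16 genes that insulin and glucose are known to regulate in liver, 2 were called higher and 2 lower (25% beside 15.8% of all tested genes), with a median log2 fold change of -0.35. *Ppp1r3b*, which directs a phosphatase to glycogen, rose from 44.6 to 101 CPM (log2 fold change 1.18, adjusted p = 0.0341), with overlap, and *Insig2*, whose liver transcript is known to fall with insulin, rose from 152 to 357 CPM (log2 fold change 1.23, adjusted p = 0.0327). Both calls were lost without replicate 3 labelled hep-/-, with log2 fold changes of 0.66 for *Ppp1r3b* and 0.53 for *Insig2*, which had 627 CPM in that liver and 219.7 and 223 CPM in the others of its group. *Acly*, ATP citrate lyase of lipid synthesis, fell from 78.4 to 38.2 CPM (log2 fold change -1.04, adjusted p = 0.0180), and *Mid1ip1*, a partner of acetyl-CoA carboxylase, from 16.1 to 8.09 CPM (log2 fold change -0.99, adjusted p = 0.0166). Of the 4 calls, 2 were lost without flox/flox replicate 1, 2 or 4 or without replicate 3 labelled hep-/-. Across the 3 lists 24 of 133 tested genes were called, and 5 of these calls held in all 7 fits that left out a liver. Of the 24 calls, 11 held in all 10 alternatives that used another test, scaling or filter on the 7 livers.

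Cell type markers were read beside these results. None of 12 hepatocyte markers was called, and their summed level was 92033 to 133770 CPM in flox/flox livers and 103296 to 166327 in livers labelled hep-/-. *Alb* alone made up 57197 to 90888 and 70086 to 112935 CPM. Single markers differed in direction, with log2 fold changes of 0.70 for *Apoa1* and -0.85 for *Cps1*. Of 11 macrophage markers 7 were called lower (median log2 fold change -1.09), beside 7.83% of all tested genes. Their sums were 1036 to 2079 and 554 to 595 CPM, and 4 of these calls were lost without flox/flox replicate 2 or 3 or without replicate 3 labelled hep-/-. Stellate (9), cholangiocyte (5) and lymphocyte (6 tested of 7) markers gave 0 calls, and of 7 endothelial markers *Kdr* was lower, a call kept in 2 of the 7 leave-one-out fits. The summed ranges overlapped for these 4 cell types, and no marker was listed at 0 in all livers. The lower macrophage markers and the higher mitochondrial share moved with the same groups as *Akt1*, *Akt2* and the called genes, and their part in those differences was not tested. Without the mitochondrially encoded genes 0 members were called, as with them.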

How the data were processed

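RNA from 7 livers was measured, with 1 library per mouse. The submitters' processing notes name fastp, HISAT2, HTSeq, DESeq2, R 3.2.0 and GRCm39. The authors deposited counts, whole numbers per gene that were not normalized, and a second table of FPKM. Where every liver had 10 or more counts (13374 genes), FPKM equalled the count over a fixed length and the library total. No column of sample values was left unused, and no row of the table was a blank or a total.

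Groups and replicate numbers came from the sample labels. Genes were filtered by filterByExpr (minimum count 10, minimum total 15), scaled by TMM and entered into the quasi-likelihood test of edgeR 4.0.16 (R 4.3.3), with group as the only term. Adjustment was by Benjamini-Hochberg over 15179 genes, and a call needed both a log2 fold change beyond 0.58 in size and an adjusted p under 0.05. A total of 3 counts in a library equals 0.0756 to 0.0980 CPM, and intervals come from the fitted model. Single members were also compared by exact permutation tests of mean CPM. The method was tested on simulated data.

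The members, lists and tests were chosen with earlier results of these data known. All members are named, with the called genes of each role (at most 4 per direction) or, where a role had none, its most abundant gene. A few results of the lists are not reported here. The alternatives were DESeq2 1.42.0, other normalizations and filters, limma 3.58.1 on FPKM, voom, leaving out mitochondrially encoded genes, a replicate block and leaving out each liver. Equal replicate numbers belong to different animals, and the deviations of same-numbered livers from their group means correlated at -0.485, -0.146 and 0.105, so that the numbers were not taken as pairs.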

Additional observations from a re-analysis of the deposited data

Results flagged for a closer look

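Among 51 sets of 4 flox/flox values, for 46 genes in CPM and the 5 ratios, 2 had 1 liver far from the others by Dixon's test at the 95% level, and chance alone marks about 1 set in 20. *Irs2* was at 71.0 CPM in flox/flox replicate 4, a gap of 0.903 of the group's range to the next liver. *Phlpp1* was at 21.1 CPM in flox/flox replicate 3, a gap of 0.843 of the range.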

How the results depend on the processing

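In the count test 2404 genes, 0 members and 13 pathway genes were called. Limma on log2(FPKM + 1) for all genes above 0 gave 1330, 1 and 7. The replicate block gave 1267, 0 and 5. Leaving out each liver in turn gave 885 to 2396 genes, 0 members and 1 to 13 pathway genes. The total was 885, 1405 and 1552 without flox/flox replicates 2, 3 and 4 and 1199 without replicate 2 labelled hep-/-. Limma on FPKM filtered at 1 in 3 livers called 1 member at a pseudocount of 1 (*Akt1*, -0.59) and 2 at 0.1 (*Akt1* and *Akt2*, both -0.62). *Irs2*, at 0.01, turned to -0.01 with a filter of 1 count in any liver, to -0.12 on log2(FPKM + 1) with or without the filter and to -0.15 at a pseudocount of 0.1, and ran from -0.44 to 0.30 as livers were left out. *Pik3r1* ran from -0.39 to 0.14 and *Trib1* from -0.01 to 0.43 in the same fits. Of the list genes named without a call, *Igfbp1* ran from -0.31 to 0.88 and *Tat* from -0.11 to 0.54. The other members kept their direction in every alternative run, except that *Insr* was at 0.00 in all limma fits on FPKM, and the 5 ratios moved by less than the spread between livers when 1 was left out or counts were used. The causes of these shifts were not tested. With 4 and 3 mice, the intervals of 8 members reached past 0.58, and each member had 667 to 4762 counts per liver.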
